A study of Rattus norvegicus with 42 samples.

Results

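Cytosolic ribosomal proteins are the protein building blocks of the ribosome that translates nuclear-encoded mRNA in the cytoplasm. They were chosen here by gene symbol: Rpl or Rps followed directly by a number and at most a short suffix, plus Rplp0, Rplp1, Rplp2 and Rpsa, with the Rps6k kinases left out. In the table of 15516 RefSeq transcripts this rule took 114 transcripts of 84 symbols, without use of any measured level. After a filter on low counts, 101 of these transcripts (81 symbols) were tested among 13062, and the 13 others had a mean of at most 4.88 counts per animal.

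The study asked how a single neonatal dose of an antiseizure drug changes the transcriptome of the developing hippocampus. Male Sprague Dawley rat pups received 1 intraperitoneal injection on postnatal day 7, of saline (vehicle, VEH), of phenobarbital (PB, 75 mg/kg), a barbiturate that enhances GABA-A receptor currents, or of levetiracetam (LEV, 200 mg/kg), which binds the synaptic vesicle protein SV2A. Pups went back to the dam and hippocampi were taken 72 h later, on postnatal day 10, after perfusion with cold saline buffer, 1 RNA-seq library per animal. The analysis covered 13 VEH, 14 PB and 14 LEV animals, and VEH animal 7, marked as excluded by its label, was left out. Pups came from 2 purchase orders, with each litter giving 1 animal to a group. The sample codes have 2 forms, one for animals 1 to 6 and one for animals 7 to 14 of each group. They were used as 2 series, although the labels do not say that they are the orders.

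Totals ran from 9499492 to 14488134 estimated counts per animal. Whole hippocampus holds many cell types, so that more cells of a type and more RNA per cell cannot be told apart. Neuron markers (Rbfox3, Snap25, Syt1, Slc17a7, Gad1 and Gad2) were present in every animal, as were Prox1, Wfs1, Neurod6 and Zbtb20, genes used as marks of hippocampal neurons. Choroid plexus transcripts varied most between animals, from 73.8 to 84860 summed normalized counts. Of the 8 marker genes tested 0 differed between groups, with Otx2 read by the first of its 2 entries.

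A ribosome has a small subunit, which decodes the mRNA and carries the Rps proteins, and a large subunit, which forms the peptide bond and carries the Rpl proteins. A flexible stalk of Rplp0, Rplp1 and Rplp2 on the large subunit recruits elongation factors. Their mRNAs are abundant in most cells and many begin with a 5′ terminal oligopyrimidine (TOP) tract, a C followed by pyrimidines, through which mTORC1 signalling controls their translation. Protein synthesis in neonatal hippocampal neurons supplies the growth of dendrites and synapses.

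RefSeq promoters (build GRCr8, 250 bases before to 50 bases after the annotated start) matched 67 of the 84 symbols, with 68 entries. A tract was counted where a run of at least 5 pyrimidines, read on the sense strand from its first C, began between -10 and 11 relative to the first transcribed base. It was present in 43 of the 68 promoters (63.2%) and in 27.3% of all 33469 promoters. The 30 bases around the start (15 on each side) are shown for members that later results turn on and for paralog pairs, with the tract in capitals.
Rps23 (chr2:23814502-23814531, plus strand): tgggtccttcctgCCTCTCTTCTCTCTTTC
Rpl27a (chr1:172974558-172974587, plus strand): cgagacttggtgggCTCCTCCCTCTTTCTT
Rps27 (chr2:177964592-177964621, minus strand): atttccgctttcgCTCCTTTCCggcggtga
Rpl10 (chrX:157205835-157205864, plus strand): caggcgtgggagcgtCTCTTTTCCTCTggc
Rplp0 (chr12:46718376-46718405, minus strand): gaccgcaccgcaCTTCTCTCgccaggcgtc
Rpl24 (chr11:58128391-58128420, minus strand): gaatttagggaggagattctctaccctata
Rps19 (chr1:89608673-89608702, plus strand): cccgacttgtgcgcccgggaaaccccgtcg
Rpl22 (chr5:168117946-168117975, plus strand): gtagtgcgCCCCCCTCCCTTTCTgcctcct
Rpl22l1 (chr2:113683181-113683210, plus strand): gctccgtggatatccggttccgagttgcgc
Rps27l (chr8:76443643-76443672, plus strand): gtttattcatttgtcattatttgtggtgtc

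By these windows Rps23, Rpl27a, Rps27, Rpl10, Rplp0 and Rpl22 hold a tract at the annotated start, and Rpl24, Rps19 and the paralogs Rpl22l1 and Rps27l hold none there. Of the members called in PB against VEH or LEV below, 11 of 18 promoters held a tract (61.1%), and of the tested members called in neither, 30 of 48 (62.5%). The letters CCGGAAG, the core bound by ETS factors, were found on either strand in 20 of the 68 promoters (29.4%) and in 8.75% of all promoters. AAGATGG, the core of the YY1 motif, was found on either strand in 10 (14.7%) and in 7.01% of all. A match describes the letters and not a bound site, and no overlap with another motif was searched for.

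Ribosomal protein genes have many processed copies in the rat genome, and the deposited table places reads accordingly. In rn6, the build of the counts, 19 member symbols had more than 1 transcript entry, and 13 had entries on more than 1 chromosome. Of the counts of Rpl8, 99.9% lay at an 832 base span on chromosome 3, and of those of Rpl13, 91.0% lay at a 717 base span on chromosome 8. For Rpl10a, 71.9% lay at 723 bases on chromosome 4. Of all 114 members, 16 had the same values as another entry, such as the paired entries of Rps6, Rplp2 and Rpl39, and the 101 tested members held 94 different value profiles. The counts of such members cannot be assigned to 1 locus with certainty.

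PB animals had more ribosomal protein RNA than VEH animals, by a small and widespread margin. In VEH the members took 1.16% to 1.51% of all counts (median 1.38%, n = 13). In PB they took 1.26% to 1.71% (median 1.47%, n = 14), and in LEV 1.21% to 1.52% (median 1.38%, n = 14). The 3 ranges overlapped, with PB animals 2 (1.71%), 10 (1.69%), 1 (1.57%) and 7 (1.54%) above every VEH and LEV animal.

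Within animals 1 to 6 the PB and VEH ranges were apart. The share was 1.26% to 1.41% in VEH, 1.45% to 1.71% in PB and 1.34% to 1.43% in LEV, so that every PB animal lay above every VEH and LEV animal of that series. Within animals 7 to 14 it was 1.16% to 1.51% in VEH, 1.26% to 1.69% in PB and 1.21% to 1.52% in LEV, and the ranges overlapped widely. The series also differed in spread: the median coefficient of variation of a member among VEH animals was 5.78% in the first and 14.3% in the second.

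**Figure D1:**
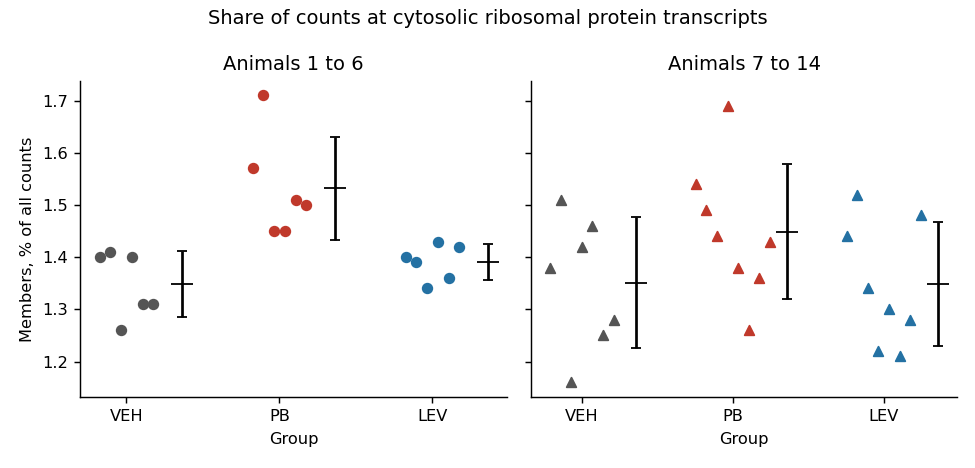
Share of all estimated counts at the 114 member transcripts, in percent, for each animal by group and series (points), with the mean and SD beside them. The PB animals of the first series, at 1.45% to 1.71%, lie above its VEH animals, at 1.26% to 1.41%, while the second series overlaps.

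In the test across all transcripts, 14 members were higher in PB than in VEH and 0 were lower (edgeR quasi-likelihood F-test, Benjamini-Hochberg adjusted, adjusted p under 0.05). Among all 13062 tested transcripts 1.93% were called higher and 3.46% lower. Of the 101 tested members, 94 had a positive log2 fold change, beside 51.9% of all transcripts. Their median was 0.13 on the log2 scale, a fold of 1.10, beside 0.0046 over all transcripts, and the range was -0.08 to 0.33. With a log2 fold change of at least 0.32 as a second condition, 1 member remained, Rps19, beside 0.345% of all transcripts. At an unadjusted p under 0.05, 52 members were higher and 0 lower, beside 9.79% of all transcripts called higher.

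The count of 14 depended on single animals, and the median moved little. It fell to 5 without VEH 3, PB 2, PB 7 or PB 10, to 7 without VEH 10 or VEH 13 and to 9 without PB 8, and rose to 29 without VEH 9 and to 31 without PB 12. Over the 41 such fits the median log2 fold change stayed between 0.11 and 0.15 and no member was called lower. With DESeq2 the count was 25, with the animal that the label excludes it was 3, and without a scaling factor it was 30. The share of all transcripts called under each of these settings is not given beside them. These counts therefore do not show whether a setting moved the members more than other transcripts.

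Neuron markers are set beside this result, and no association between them and the members was tested. The summed normalized count of the neuron markers was 28390 to 33960 in VEH, 22470 to 31550 in PB and 27650 to 34660 in LEV. The lowest value was that of PB 2, the animal with the highest share of ribosomal protein counts. PB 10, with the next highest share, had 29340, beside a PB median of 29580. All 6 neuron marker genes had a negative log2 fold change in PB, from -0.06 (Rbfox3) to -0.16 (Gad1). Of the 6, 0 passed the test against VEH, while 2 were lower against LEV. Snap25, with 3 tested entries, was read by the first of them alone. With the log2 of that sum as a covariate, an alternative chosen after seeing the data, 0 members were called, the members' median fell to 0.03, and the calls over all transcripts fell from 704 to 43. The mean of that sum was 31620 in VEH and 28920 in PB, a difference that was not tested. The drug and the neuron marker level cannot be told apart by such a fit. With choroid plexus markers as the covariate instead, 18 members were called and the median was 0.14. The share of all transcripts called in that last fit is not given here, so its count is not particular to the members.

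**Figure D2:**
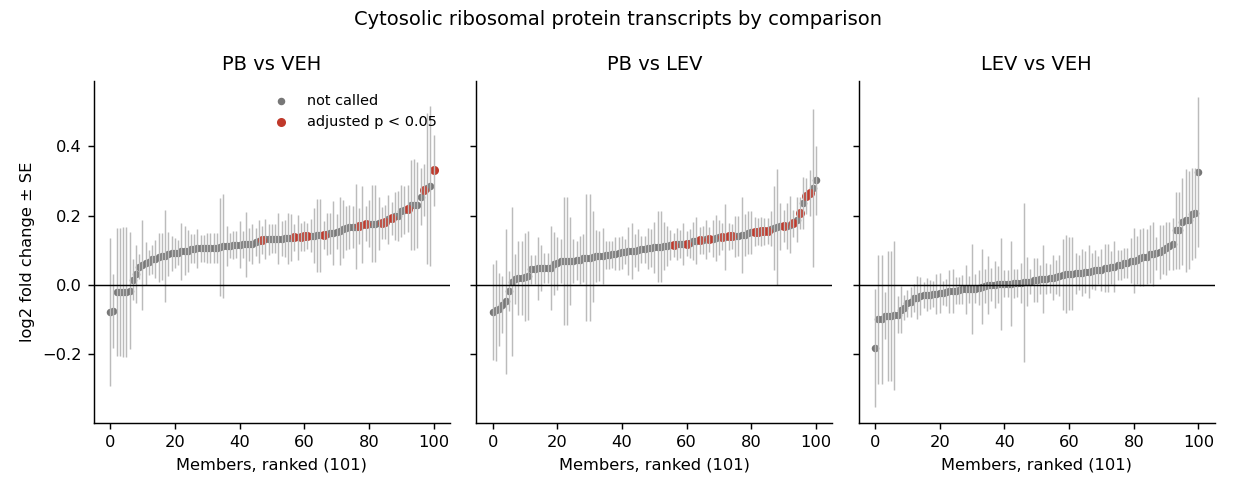
Log2 fold change with its SE for each of the 101 tested members, ranked within PB vs VEH, PB vs LEV and LEV vs VEH, with members at an adjusted p under 0.05 in red. In PB vs VEH 14 and in PB vs LEV 17 are called, all above 0, and in LEV vs VEH none is.

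Proteins of the small subunit gave 7 of the 14 calls. Rps23 (NM_078617, chr2:19823234-19824805), a protein of the decoding centre, had normalized counts of 1406 to 2004 in VEH (median 1545), 1590 to 2322 in PB (median 1812) and 1462 to 1863 in LEV (median 1658). Its ranges overlapped, but all 14 PB animals exceeded the mean of VEH in their own series. The PB and VEH groups differed by 0.19 ± 0.05 (SE) on the log2 scale (edgeR quasi-likelihood F-test, Benjamini-Hochberg adjusted, adjusted p = 0.0138), the smallest p of any member.

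Rps27 (NM_053597, chr2:189572175-189573281), a zinc finger protein of the small subunit, had 472.1 to 912.3 normalized counts in VEH (median 626.4), 609.2 to 1116 in PB (median 798.6) and 510.8 to 924.8 in LEV (median 655.6). The PB range was shifted up at both ends, and 13 of 14 PB animals exceeded the mean of VEH in the same series. The log2 fold change was 0.27 ± 0.08 (adjusted p = 0.0252, edgeR quasi-likelihood F-test, Benjamini-Hochberg adjusted). PB 2 stood at 962.7 while the other 5 PB animals of its series lay between 609.2 and 687.6.

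Rps19, whose loss causes Diamond-Blackfan anaemia in people, had the largest rise and has 2 entries. At chr1:81750928-81756630 (NM_001037346) it had 194.4 to 473.9 normalized counts in VEH (median 321.8), 285.7 to 577.8 in PB (median 378.1) and 256.1 to 437.5 in LEV (median 319.1). The ranges overlapped and 12 of 14 PB animals exceeded the mean of VEH in the same series, with a log2 fold change of 0.33 ± 0.10 (adjusted p = 0.0461, edgeR quasi-likelihood F-test, Benjamini-Hochberg adjusted). The copy at chr9:16802280-16807983 held 51.4% of the symbol's counts and had a log2 fold change of 0.16 ± 0.10, which did not pass the test. Rps19 was called in 23 of the 41 fits that left out 1 animal.

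Rps24, Rps12 and Rps25 were also called in the small subunit. Their log2 fold changes were 0.14 ± 0.04, 0.18 ± 0.05 and 0.17 ± 0.05. Rps24 was called in 37 of the 41 fits that left out 1 animal, Rps12 in 35 and Rps25 in 13. Rps24 and Rpl26 are, like Rps19, known genes of Diamond-Blackfan anaemia. Members that were not called were not sorted by disease, and no link of the calls to that disease was tested.

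Among the large subunit, Rpl27a, Rpl8, Rpl24, Rpl15, Rpl10, Rpl26 and Rpl19 were called. Rpl27a (NM_001106290, chr1:174132798-174135817) had 1875 to 2599 normalized counts in VEH (median 2101), 2197 to 2874 in PB (median 2419) and 1737 to 2442 in LEV (median 2122). All 14 PB animals exceeded the mean of VEH in the same series, and in animals 1 to 6 the PB values (2316 to 2797) lay wholly above the VEH values (2030 to 2251). Its log2 fold change was 0.18 ± 0.05 (adjusted p = 0.0168, edgeR quasi-likelihood F-test, Benjamini-Hochberg adjusted).

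Rpl8, which lies near the peptidyl transferase centre, had 3270 to 4447 normalized counts in VEH (median 4172), 3751 to 4951 in PB (median 4397) and 3486 to 4560 in LEV (median 4025), nearly all at the short copy named above (NM_001034916, chr3:3389615-3390446). In animals 1 to 6 its PB values, 4470 to 4863, lay just above the VEH values, 4026 to 4447. The log2 fold change was 0.14 ± 0.04 (adjusted p = 0.0175, edgeR quasi-likelihood F-test, Benjamini-Hochberg adjusted).

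Rpl24 (NM_022515, chr11:47116885-47122224), which forms a bridge between the subunits, had 1183 to 1458 normalized counts in VEH (median 1300), 1215 to 1941 in PB (median 1457) and 1183 to 1604 in LEV (median 1372). Its log2 fold change was 0.18 ± 0.05, and PB 2 stood far above the others at 1941. Rps23, Rpl27a, Rpl8 and Rpl24 were called in all 41 fits that left out 1 animal.

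Rpl10 (NM_031100, chrX:156438259-156440462), whose addition is among the last steps of large subunit assembly, had 3175 to 3717 normalized counts in VEH (median 3409), 3038 to 4559 in PB (median 3828) and 3103 to 3838 in LEV (median 3412). The PB animals included both the lowest and the highest value, and 12 of 14 exceeded the mean of VEH in the same series. Its log2 fold change was 0.14 ± 0.04. Rpl15 gave 0.14 ± 0.04, Rpl26 0.14 ± 0.04 with 14 of 14 PB animals above the VEH mean of their series, and Rpl19 0.13 ± 0.04.

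**Figure D3:**
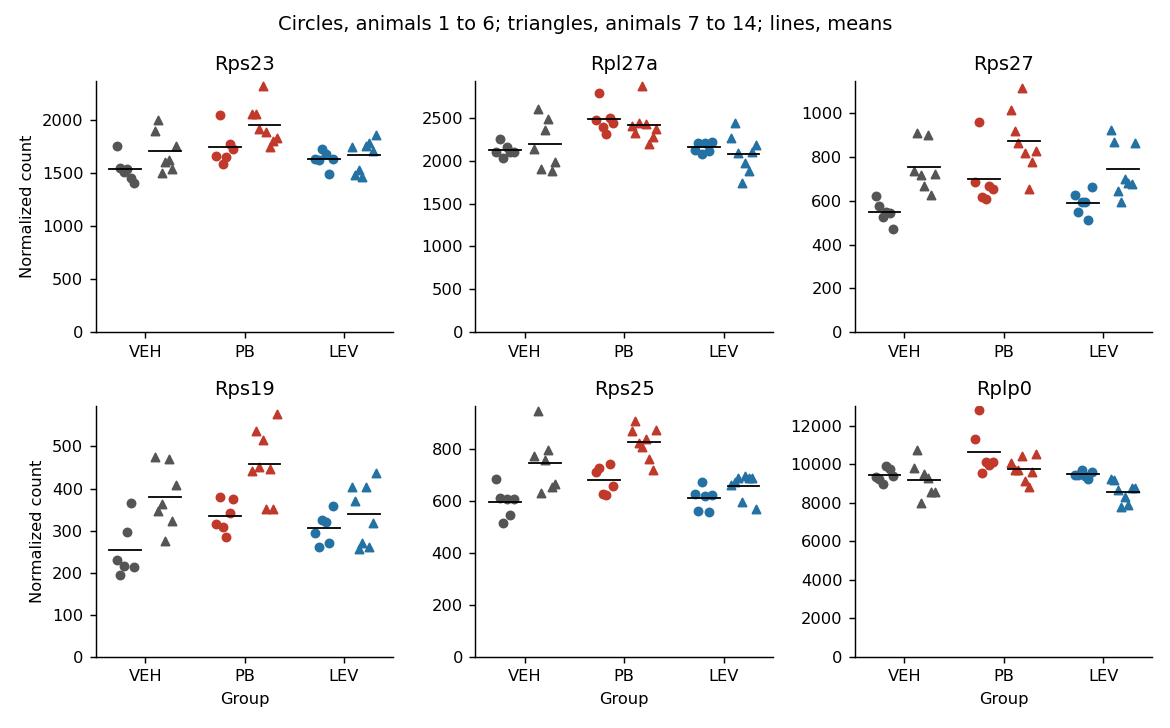
Normalized counts of 6 members for each animal by group, from 0, with circles for animals 1 to 6, triangles for animals 7 to 14 and lines for the mean of each series. For Rpl27a the PB circles, from 2316 to 2797, lie above the VEH circles, from 2030 to 2251, while its PB and VEH triangles overlap. For Rps25 the PB triangles lie wholly above the LEV triangles.

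Both subunits gave calls. Of the large subunit's tested entries 49 of 50 were positive, with a median log2 fold change of 0.14, and of the small subunit's 34 of 37, with a median of 0.13. The 4 stalk entries, of which the paired entries of Rplp2 hold the same values, were all positive, with a median of 0.15, and 0 were called. Entries of paralog or copy symbols were positive in 7 of 10, with a median of 0.09 and 0 calls. Of these 10, 4 belong to Rps9l1, whose total mean count of 1268 equals that of Rps9 in the small subunit. The same reads may thus enter both classes. No test of the difference between these classes was made.

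Stalk proteins were measured at very different precision. Rplp0 (NM_022402, chr12:46791529-46794798) had 8004 to 10750 normalized counts in VEH (median 9341), 8837 to 12790 in PB (median 10010) and 7803 to 9719 in LEV (median 9191). Its log2 fold change of 0.12 ± 0.04 in PB against VEH had an adjusted p of 0.0549 (edgeR quasi-likelihood F-test, Benjamini-Hochberg adjusted). Rplp1 had 0.13 ± 0.06, and Rplp2, at 38.1 to 119.5 normalized counts over VEH and PB, had 0.18 ± 0.11, neither past the threshold.

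Rpl5 and Rpl11, which with 5S rRNA bind Mdm2 and so link ribosome assembly to p53, did not pass the test. Rpl11 had 1490 to 2043 normalized counts in VEH (median 1677) and 1695 to 2170 in PB (median 1813), a log2 fold change of 0.13 ± 0.04 with an adjusted p of 0.0507 (edgeR quasi-likelihood F-test, Benjamini-Hochberg adjusted), just above the limit. Rpl5 had 0.07 ± 0.04, with a 95% interval of -0.01 to 0.16. Rps6, the substrate of S6 kinase whose phosphorylation is a usual readout of mTORC1 activity, had 0.11 ± 0.04 and was not called either. Rpsa, also known as the laminin receptor, had 0.05 ± 0.04, and the 2 entries of Rps27a, which is made as a fusion with ubiquitin, had 0.06 ± 0.13 and 0.23 ± 0.13.

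Paralogs were set beside their partners. Rpl22l1 had a log2 fold change of 0.09 ± 0.06 and Rpl22 one of 0.13 ± 0.08. Rps27l, a p53 target, had 0.18 ± 0.08 at 102.3 to 156.2 normalized counts in VEH, and its partner Rps27 was called at 0.27. Rpl36al had 0.01 ± 0.06 and Rpl36a 0.23 ± 0.12. Rps4y2 had -0.02 ± 0.17 and Rps4x 0.12 ± 0.04. Within these pairs only Rps27 passed the test, and no difference within a pair was tested. The muscle paralog Rpl3l and Rpl39l, known from testis, had means of 4.68 and 1.63 counts per animal and were not tested, and Rpl10l had no entry in the table.

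The lowest members were at or near no change. Rps2, a protein of the mRNA entry channel, spanned 4354 to 10680 normalized counts in VEH, 5042 to 10460 in PB and 4645 to 10540 in LEV, so that the groups overlapped almost fully, and gave -0.08 ± 0.11. One of the 2 entries of Rpl37a (NM_001108801), at 7.90 to 35.7 normalized counts over VEH and PB, gave -0.08 ± 0.21. The other entry of Rpl37a (NM_001205318) gave 0.29 ± 0.23 and Rps28 0.28 ± 0.22, the largest rises after Rps19, and their intervals included 0. Both Rpl37a entries together had a mean of only 37.7 counts per animal. Rpl37a-ps1, an entry on the same chromosome 9 but outside the symbol rule, had 1280 to 3430 normalized counts in VEH. Its log2 fold change in PB was 0.14 ± 0.11, not past the threshold.

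Against LEV, PB gave 17 members higher and 0 lower, beside 1.67% of all transcripts called higher and 2.78% called lower. The members' median log2 fold change was 0.11, and 95 of 101 were positive. This comparison shares its PB animals with the one above, so the calls are not independent of it. Rps25, a protein that some internal ribosome entry sites require, had 623.5 to 908.5 normalized counts in PB (median 751.5) and 558.6 to 696.1 in LEV (median 643.7), and in animals 7 to 14 the PB values (718.3 to 908.5) lay wholly above the LEV values (568.4 to 696.1). It differed by 0.26 ± 0.05, with all 14 PB animals above the LEV mean of their series (adjusted p = 0.00314, edgeR quasi-likelihood F-test, Benjamini-Hochberg adjusted).

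Rplp0 differed from LEV by 0.18 ± 0.04 (adjusted p = 0.00609) and Rpl27a by 0.21 ± 0.05 (adjusted p = 0.00619), both by the edgeR quasi-likelihood F-test, Benjamini-Hochberg adjusted, and with all 14 PB animals above the LEV mean of their series. Rps24 and Rpl10 differed by 0.15 ± 0.04 each. Rpl21, Rpl3, Rpl4, Rpl26, the chromosome 8 entry of Rpl13, Rpl8, Rps23, Rps4x, Rpl15, Rpl7, Rpl6 and Rpsa made up the other 12 calls. The count was 9 without PB 2 or PB 7, 10 without PB 10, and 11 without LEV 10 or LEV 12, and at most 22 in the other fits that left out 1 animal. It fell to 3 when the excluded VEH animal was kept. With covariates chosen after seeing the data, it fell to 0 (neuron markers) and to 7 (share of 18S rRNA). The share of all transcripts called in these fits is not given beside the counts. They do not show whether a setting moved the members more than other transcripts.

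LEV and VEH animals did not differ detectably in any member. Of the 101 tested members 0 were called, beside 0.00766% of all transcripts (1 of 13062), and DESeq2 called 0 as well. At an unadjusted p under 0.05, 0 members passed, beside 5.84% of all transcripts. The median log2 fold change was 0.01, with 65 of 101 positive. The member with the smallest p was Rpl24, at 0.09 ± 0.05 (unadjusted p = 0.0712, edgeR quasi-likelihood F-test), followed by Rpsa at -0.07 ± 0.04 and Rps25 at -0.09 ± 0.05. Rpl13 on chromosome 19 had 0.11 ± 0.07 and the chromosome 3 entry of Rpl38 0.21 ± 0.13.

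Each series was then taken alone. In animals 1 to 6, PB against VEH gave 15 members higher and 0 lower, beside 0.199% of all transcripts called higher, and 15 of the 26 transcripts called higher in that series were members. The median log2 fold change was 0.19, and 82 members passed at an unadjusted p under 0.05, all higher, beside 5.57% of all transcripts. Rps29 led with 0.35 ± 0.04, followed by Rplp1 (0.27 ± 0.05), Rpl27a (0.23 ± 0.04), Rpl41 (0.29 ± 0.05) and Rpl35 (0.18 ± 0.03). Rpl37, Rpl31, Rps18, Rps15, Rpl23, Rpl14, Rpl13a, Rpl24, Rpl11 and Rps15a were the others. The share of all transcripts called without 1 animal is not given here. With 6 animals a group the count of members was sensitive to each animal. It was 1 without VEH 3, 3 without VEH 1 or VEH 5, 5 without VEH 4, 6 without VEH 2 or PB 5, 7 without VEH 6, PB 2 or LEV 2, 8 without PB 1, LEV 1, LEV 4 or LEV 6, and 9 without PB 6, while the median stayed between 0.14 and 0.21.

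In animals 7 to 14, 0 members were called in PB against VEH, beside 1.76% of all transcripts called higher, and DESeq2 called 0 as well, while 1 was called when VEH 9 was left out. At an unadjusted p under 0.05, 6 members were higher and 0 lower, beside 9.38% of all transcripts. The median log2 fold change was 0.07, and 86 of 101 members were positive. Rps23 had similar values in both series, at 0.18 ± 0.06 and 0.20 ± 0.07, while Rpl24 had 0.28 ± 0.06 and 0.10 ± 0.07.

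The difference between the series was tested directly. With a batch-by-treatment term, 0 members had an adjusted p under 0.05 for that difference, and 5 passed at an unadjusted p under 0.05 (Rpl5, Rpl32, Rps15a, Rplp1 and Rps4y2), beside 11.1% of all transcripts. The median difference over members, animals 1 to 6 minus animals 7 to 14, was 0.12 on the log2 scale. Neither a difference between the series nor its absence was therefore shown for single members.

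For PB against LEV, animals 1 to 6 gave 3 members higher (Rps29, Rpl27a and Rpl23), beside 0.222% of all transcripts, and animals 7 to 14 gave 2 (Rpl21 and Rps25), beside 0.467%. The medians were 0.14 and 0.09. Without PB 7 the count in animals 7 to 14 was 1, and without PB 12 it was 5. In animals 1 to 6 it was 1 without any one of VEH 5, VEH 6, PB 1, PB 3, PB 5 or LEV 1 to LEV 6. For LEV against VEH 0 members were called in either series, beside 2.66% of all transcripts in animals 1 to 6 and 0.0459% in animals 7 to 14. At an unadjusted p under 0.05 the first series gave 11 of 101 members higher, beside 940 of all 13062 transcripts. The second gave 3 of 101 members lower, beside 273 of all 13062 transcripts. DESeq2 called 1 member in the first and 0 in the second. The share of all transcripts called by DESeq2 or without 1 animal is not given here.

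**Figure D4:**
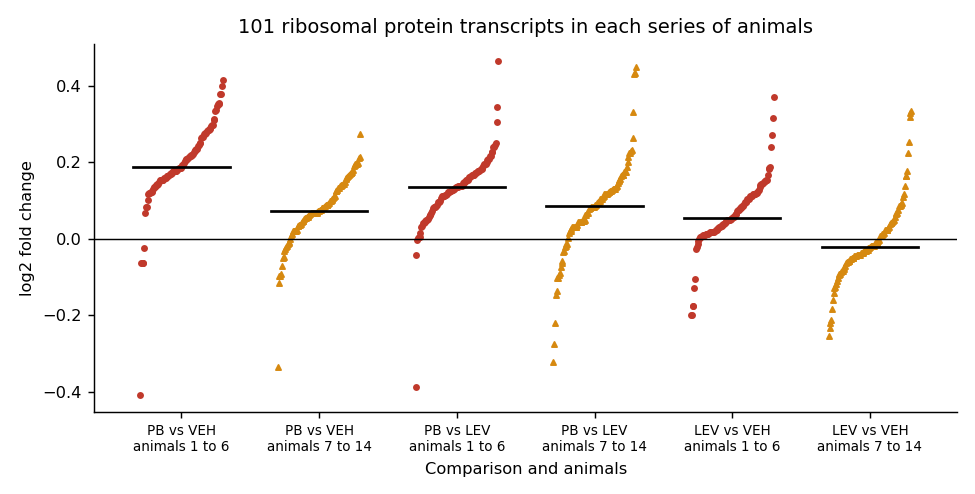
Log2 fold changes of the 101 tested members in each comparison (points, ranked within a column), with animals 1 to 6 and animals 7 to 14 fitted apart, and the median as a line. The PB vs VEH median is 0.19 in the first series and 0.07 in the second, and the LEV vs VEH medians are 0.05 and -0.02.

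Other genes of translation were set beside the members. The other 5′ TOP genes are a hand-written list of mRNAs known to begin with such a tract. In PB against VEH 18 of their 19 tested entries were positive, with a median log2 fold change of 0.09. Of these entries 4 were called higher and 0 lower, beside 1.93% and 3.46% of all transcripts. The 4 were the elongation factors Eef1a1 (0.12 ± 0.03) and Eef1b2 (0.19 ± 0.04), Hnrnpa1 (0.20 ± 0.04), an RNA-binding protein, and Vim (0.30 ± 0.06), an intermediate filament protein of glia. Rack1, a scaffold on the small subunit, had 0.11 ± 0.04, and the poly(A)-binding protein Pabpc1 had 0.09 ± 0.03, neither called. The 3 entries of Fau, which carries eS30, lay between 0.22 and 0.37 and were not called.

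Translation elongation factors had 2 of 12 tested entries called higher, the same Eef1a1 and Eef1b2, and a median of 0.05. Ribosome biogenesis genes had 1 of 45 higher (Polr1a, the large subunit of RNA polymerase I, 0.15) and a median of 0.03. Translation initiation factors had 1 of 53 lower (Eif5a2, -0.22) and a median of 0.01. Over all tested transcripts 1.93% were called higher and 3.46% lower, so the single calls of the last 2 lists do not set them apart. By their medians these 3 lists lay between the members and all transcripts.

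Mitochondrial ribosomal proteins serve the separate ribosome of mitochondria. Of their 77 tested entries 26 were positive in PB against VEH, with a median of -0.03. Of the 77, 0 were called higher and 5 lower, beside 1.93% and 3.46% of all transcripts. The lower entries were those of Mrpl17, Mrpl4, Mrps30 and the 2 entries of Mrpl36. Oxidative phosphorylation genes had 18 of 102 positive, 0 higher and 8 lower, with a median of -0.07. Among those 8 were the complex I subunit Ndufs1 (-0.16 ± 0.04) and the complex III subunit Uqcrfs1 (-0.18 ± 0.04). Proteasome subunits had 10 of 39 positive and 0 called, with a median of -0.03. In LEV against VEH none of these lists had a call, and their medians lay between -0.02 and 0.04.

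**Figure D5:**
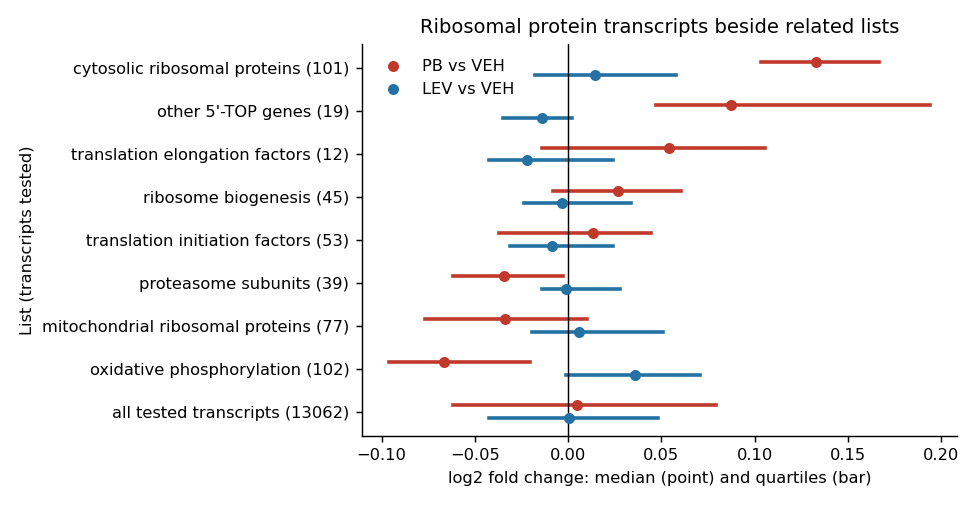
Median (point) and quartiles (bar) of the log2 fold change of the tested transcripts of each list in PB vs VEH and LEV vs VEH, with the number of transcripts in brackets. The cytosolic ribosomal proteins have the highest median in PB vs VEH, 0.13, the oxidative phosphorylation genes the lowest, -0.07, and the LEV medians lie near 0.

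The RNA of the small subunit, 18S rRNA (Rn18s), was counted in the same libraries. The paper does not say whether rRNA was removed before sequencing, so its share was not read as the amount of rRNA in the tissue. It took 0.853% to 1.23% of counts in VEH, 0.434% to 1.68% in PB and 0.384% to 1.28% in LEV. Its log2 fold change was -0.30 ± 0.14 in PB and -0.57 ± 0.14 in LEV against VEH, and neither passed the test. For LEV the unadjusted p was 0.0001567 and the adjusted p 0.1861 (edgeR quasi-likelihood F-test, Benjamini-Hochberg adjusted). The paper, with DESeq2, lists Rn18s among the transcripts lower in LEV than in VEH. In animals 1 to 6 the share of Rn18s lay between 0.963% and 1.23% in VEH, 0.953% and 1.68% in PB, and 0.932% and 1.28% in LEV. In animals 7 to 14 it lay between 0.853% and 1.20% in VEH, 0.434% and 0.905% in PB, and 0.384% and 1.06% in LEV. The PB mean was above the VEH mean in the first series (1.247% and 1.114%) and below it in the second (0.714% and 1.08%). The medians of the first series were close, 1.155% in PB and 1.125% in VEH. In that series only PB 2 (1.52%) and PB 3 (1.68%) lay above every VEH animal. The fold change in PB over all animals thus pools 2 unlike series. With the share of Rn18s as a covariate, 24 members were higher in PB than in VEH and the median was 0.15. The share of all transcripts called in that fit is not given here, so the count of 24 is not particular to the members.

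Markers of other cell types are given for the same comparison. Skeletal muscle markers had 3 of 3 tested genes lower in PB (Acta1, Atp2a1 and Myh4), and in animals 1 to 6 their sum was 292.9 to 447.2 normalized counts in VEH and 116.6 to 160.8 in PB, without overlap, as for the members' share in the other direction. Of the other muscle markers, Ckm was at 0 in 26 animals and Mylpf in 7. Microglia markers had 1 of 6 higher (Cd68, a lysosomal protein of phagocytes, 0.97), astrocyte markers 1 of 4 higher and oligodendrocyte markers 1 of 4 lower. Choroid plexus, blood, ependyma, endothelium and oligodendrocyte precursor markers had 0 called. A marker gene with several tested entries was read by its first entry alone. Such genes include Mbp with 6 entries, Aqp4 with 5, Slc1a3 with 4 and Flt1 with 2, and their other entries are not counted here. The part of these cell types in the members' change was not tested.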

How the data were processed

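RNA of 42 hippocampi was sequenced by the authors as paired reads, which they aligned to rn6 with STAR 2.7.3a in Partek. The deposited values are estimated counts per RefSeq transcript from the Partek E/M algorithm, before normalization, and 13.7% of them are not whole. The authors' deposited table of comparisons holds DESeq2 p values, adjusted p values, ratios, fold changes and group means, and was not used. Per-sample columns without a sample numbered 0.

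Whole-number counts were tested with edgeR 4.0.16 under R 4.3.3 (rounding, TMM, filterByExpr, glmQLFit and glmQLFTest), for 41 animals and 13062 of 15516 transcripts, with the series of the sample code as an additive term and Benjamini-Hochberg adjustment over all tested transcripts. A member was called at an adjusted p under 0.05. Series were also fitted apart without that term, and their difference in a fit with a batch-by-treatment term. Normalized counts are rounded counts scaled by effective library sizes of 9588079 to 13786159. Totals of 9499492 to 14488134 limit the precision of members near the filter, and each SE gives it. Transcript lengths were not used here, so levels were not compared between genes. The test was tried on simulated data.

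The members and the lists of other genes and markers were chosen with earlier results of these data known. Named members were the 10 with the smallest p in PB against VEH, the 5 each in the other comparisons, the 3 largest rises and falls, the members with the roles given above, and those called, apart from items that are not reported here. Litters are not given per animal and were not modelled. Alternatives were DESeq2 1.42.0, other scalings, filters, terms, animals and call rules, with 3 covariates (choroid plexus markers, neuron markers and 18S rRNA) added after seeing the data. Promoter sequences are from RefSeq (GRCr8).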

Additional observations from a re-analysis of the deposited data

Results flagged for a closer look

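The share of all counts at the members was 1.52% in the VEH animal that its label excludes, above the highest of the other 13 VEH animals, 1.51%, whose lowest was 1.16%. That animal entered no comparison above.

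Single animals stood apart from the rest of their group and series in 12 of 96 sets of 6 to 8 animals, over the members' share and 15 members with the smallest p, where chance gives about 1 set in 20. PB 2 was high among the PB animals of its series in Rpl27a (2797 normalized counts, others 2316 to 2495), Rpl24 (1941, others 1455 to 1527), Rps27 (962.7, others 609.2 to 687.6), Rpl15 (4278, others 3265 to 3433), Rpl10 (4559, others 3519 to 3851) and Rpl26 (1885, others 1468 to 1520). PB 10 was high in Rpl27a (2874, others 2197 to 2442) and in the chromosome 3 entry of Rpl38 (1700, others 732.8 to 950.9). PB 5 was high in Rps24 (1308, others 1036 to 1135), as was PB 14 in the other series (1239, others 984.1 to 1089). LEV 5 was low in Rpl26 (1188, others 1361 to 1440) and LEV 3 in that entry of Rpl38 (681.9, others 909.9 to 994.0). The members are not independent, so that PB 2 and PB 10 count several times. The 15 members were also picked by their p in these data. The tally of 12 therefore cannot be weighed against 1 set in 20. The causes were not tested.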

How the results depend on the processing

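In PB against VEH the number of members called higher was 14, and 1 with a log2 fold change of at least 0.32, 30 at an adjusted p under 0.1, 25 with DESeq2, 30 without a scaling factor, 9 without a filter, 6 without a batch term, 6 with the animal number as a replicate block, 3 with all 14 VEH animals, 8 with only the 2 groups compared, 0 with neuron markers and 24 with 18S rRNA as a covariate. Leaving out 1 animal gave 5 to 31. In PB against LEV it was 17, and 0 with the fold condition, 8 without a batch term, 3 with all 14 VEH animals, 0 with neuron markers and 7 with 18S rRNA as a covariate, and 9 to 22 leaving out 1 animal. No setting named here called a member lower, and in LEV against VEH each gave 0 over all animals. Apart from the covariates and the fits without 1 animal, the members' median log2 fold change in PB against VEH stayed between 0.12 and 0.16. Counts in this section are given without the share of all transcripts called under the same setting. They do not show whether a setting moved the members more than other transcripts.

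In animals 1 to 6 alone, PB against VEH gave 15 members, 39 with DESeq2, 7 with the replicate block and 1 to 12 leaving out 1 animal. PB against LEV gave 3, 19 with DESeq2 and 0 with the block, and LEV against VEH gave 0 and 1 with DESeq2. In animals 7 to 14, PB against LEV gave 2 and 6 with DESeq2, and PB against VEH 0 to 1 leaving out 1 animal (1 without VEH 9).

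No pairing of the samples by animal number was seen. Of 40 pairs of the same number 10 had a correlation of deviations over 0.1. In 11 of 80 comparisons the best match of a sample bore its own number. The median correlation was -4.46e-05 for pairs of the same number and -0.0048 for other pairs. The block changed no other count by over 1.5 times.

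For PB against VEH the entry Rps9 NR_132728 turned to 0.0016 without a scaling factor and 0.014 with all 14 VEH animals, and Rps4y2 to 0.0037 without a scaling factor, 0.00023 without a batch term, 2.7e-05 with a batch-by-treatment term and 0.031 with the replicate block. With all 14 VEH animals Rpl37a NM_001108801 turned to 0.022 and Rpsa to -0.032. Leaving out 1 animal gave Rpl37a NM_001108801 -0.154 to 0.025, Rps2 -0.122 to 0.0041, Rps9 NR_132728 -0.11 to 0.074, Rps4y2 -0.079 to 0.058 and Rpl36al -0.012 to 0.0397, and none of these had passed the test. Depth limits the entries with low counts, such as those of Rpl37a, at under 50 counts per animal.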

Other observations

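The excluded VEH animal differed from the other VEH animals in single members by more than its share of counts shows. Rplp0 stood at 17030 normalized counts, beside 8004 to 10750 in the other 13. Rpl8 stood at 5538, beside 3270 to 4447, and Rps19 on chromosome 1 at 624.4, beside 194.4 to 473.9. Rpl22l1, the paralog of Rpl22, had 22 normalized counts, beside 453.4 to 589.0. Its 18S rRNA took 2.42% of counts, beside 0.853% to 1.23%. These values were chosen after they were seen.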
